A study of Drosophila melanogaster with 22 samples.

Results

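The comparison described here set S2 cell arrays labelled as depleted of an exosome cap subunit against arrays labelled as depleted of a ring subunit. Members were chosen by array title alone: Csl4, Rrp4 and Rrp40 for the cap (8 arrays) and Mtr3, Rrp46 and Ski6 for the ring (6 arrays), 14 of the 22 arrays in the series. Rrp4 had 4 arrays and each of the other 5 subunits had 2. The mean of each subunit was given equal weight, so that the 4 Rrp4 arrays counted as 1 subunit, and the contrast was repeated without them. Arrays of cells given GFP double-stranded RNA (dsRNA) took no part in the contrast and are quoted as a reference level only.

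The RNA exosome is a nuclease complex that digests RNA from the 3' end. Its core is a ring of RNase PH-like proteins, among them Mtr3, Rrp46 and Ski6 (Rrp41), and on top of the ring sit the cap proteins Csl4, Rrp4 and Rrp40, which carry S1 and in some cases KH RNA-binding domains and line the entry to the central channel. In flies and yeast the ribonuclease activity comes from Dis3, below the ring, and from Rrp6, a nuclear exonuclease that works with Rrp47.

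All cells were Drosophila S2, a line of embryonic origin with blood cell-like features. They were given dsRNA against the named gene (or against GFP, which they lack) at 30 µg/ml on days 0, 1 and 3 and lysed on day 5, and total RNA was hybridized to one-colour Affymetrix arrays. The series was made to collect the mRNAs on which exosome subunits act. By their titles the 14 arrays of the contrast are biological replicates, but whether these were separate cultures is not given in the sources used here, so the p-values measure the spread between arrays.

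Arrays differed in level and in controls before any comparison. The 2% trimmed mean of the deposited intensities was 500 on every Rrp4 array, 302.6 to 345.6 on the Mtr3 and Ski6 arrays and 163.7 to 203.5 on the Csl4, Rrp40 and Rrp46 arrays. After quantile normalization, the 18S ribosomal RNA controls had a mean log2 signal of 12.04 to 13.66 on the Mtr3 and Ski6 arrays and 9.30 to 9.74 on the Rrp46 arrays. Within the cap the same controls read 10.10 and 12.35 on Csl4 arrays, 7.13 and 8.27 on Rrp40 arrays and 6.69 to 8.61 on Rrp4 arrays. Poly-A spike-ins minus hybridization controls read -4.87 to -2.44 (log2) on the Rrp4 arrays and 0.675 to 2.13 on the other 10 arrays of the contrast. The log2 signal of the actin controls at the 3' end minus that at the 5' end, a sign of RNA quality, was 0.21 to 0.28 on the Mtr3 and Ski6 arrays, below all cap arrays (0.31 to 0.99), and 0.43 and 0.46 on the Rrp46 arrays. The same measure for the GAPDH controls overlapped (0.38 to 1.12 on ring and 0.28 to 0.98 on cap arrays). The 18S signal was thus higher on ring arrays as a whole, with overlap (9.30 to 13.66 against 6.69 to 12.35), and the part of these controls in the results was not tested. A further contrast, chosen after seeing the data, set the mean of Csl4 and Rrp40 against Rrp46, the 3 subunits of closest deposited level. The Rrp46 arrays there had 18S signals between those of the Rrp40 and the Csl4 arrays.

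With a cap label, signal was higher for both phosphoenolpyruvate carboxykinase genes, Pepck2 (at least 12.7-fold) and Pepck1 (2.66-fold), for the growth factor gene daw (2.27-fold) and the sugar-responsive gene sug (2.19-fold). Of 13 tested genes of glycolysis and gluconeogenesis 8 were higher in cap, where 3.34% of all genes were. Without Rrp4 it was 5 of the 13, beside 116 of all 7222 genes, and 4 of 12 with the other 18 arrays normalized alone. Against Rrp46 alone it was 2, beside 0.384% of all probe sets. With a ring label, signal was higher for the odorant-binding protein gene Obp28a (3.97-fold), the tetraspanin gene Tsp42Eg (3.26-fold), the peroxidasin gene Pxn (2.28-fold) and the antimicrobial gene AttD (1.90-fold). Errors and values by array follow. For Pepck1, sug, Tsp42Eg, Pxn and AttD the Rrp46 mean was the ring mean nearest the cap, and for Pepck2, daw and Obp28a it was the farthest. Against Rrp46 alone Pepck1, Pepck2, daw and Obp28a were called, and sug, Tsp42Eg, Pxn and AttD were not. The SE was wider in that contrast, for Tsp42Eg 0.39 in place of 0.25, so a lost call there does not by itself mean a smaller difference. With the other 18 arrays normalized without Rrp4, Pepck2 fell below the filter on mean signal and was not tested, and AttD was not called.

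Of 9385 probe sets tested, 544 (5.8%) passed limma's moderated test at a Benjamini-Hochberg adjusted p under 0.05. The log2 signal of 270 (2.88%) was higher with a cap label and that of 274 (2.92%) with a ring label, and 80 differed at least 2-fold (0.852%; 33 and 47, the latter 0.501%). With the values as deposited the split was 110 and 235, where the median difference of all probe sets was -0.10 in place of 0.003. Without the Rrp4 arrays 260 passed (2.77%), 128 higher in cap (1.36%) and 132 in ring (1.41%), but 44 and 143 with median centring and 16 and 6624 as deposited. These 260 became 733 without Csl4 1, 73 without Csl4 2, 74 without Rrp40 1, 103 without Rrp40 2, 110 without Ski6 1, 118 without Mtr3 2, 122 without Rrp46 2, 139 without Rrp46 1 and 170 without Ski6 2. The 544 calls became 284 without Ski6 1, 328 without Mtr3 2, 359 without Rrp40 1, 350 without Rrp40 2, 348 without Rrp46 1 and 346 without Rrp46 2. Taking whole subunits away gave 166 calls without Ski6, 301 without Mtr3 and 907 without Rrp46.

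These p-values set the classes against the spread between arrays of 1 subunit, not against the spread between subunits of 1 class. With the 6 subunit means as the unit, 0 probe sets passed and 419 (4.46%) had an unadjusted p under 0.05 in limma. With the subunit as a random block 0 passed as well, 634 had an unadjusted p under 0.05, and the estimated correlation within a subunit was 0.513. The smallest adjusted p was 0.351 in the first of these fits and 0.0978 in the second, both for Pepck1. An exact two-sided permutation test of 3 subunits against 3 cannot go below p = 0.1. The calls below thus describe differences between these 6 labelled sets of arrays.

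Subunits of 1 class were not alike. A moderated F test among the cap subunits called 2531 probe sets (27%) and one among the ring subunits called 291 (3.1%). Csl4 against Rrp40 alone called 83. The cap count became 752 without Csl4 2, and the ring count 79 without Rrp46 1, 65 without Rrp46 2 and 177 without Ski6 1. Of the 544 class calls, 277 (2.95% of all probe sets) were also called among the cap subunits and 323 (3.44%) among the subunits of either class. Over all tested probe sets the median absolute log2 difference between subunit means was smallest for Mtr3 and Ski6, at 0.127, which share the ring. The next smallest, 0.149, joined Rrp40 of the cap with Rrp46 of the ring. Csl4 and Rrp4 lay farthest apart at 0.419 although both are cap proteins. Pairs within a class had a median of 0.229 and pairs across classes one of 0.256, and the Csl4 pairs also carry the wider spread of the Csl4 arrays, which differed from each other by a median of 0.343.

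**Figure D1:**
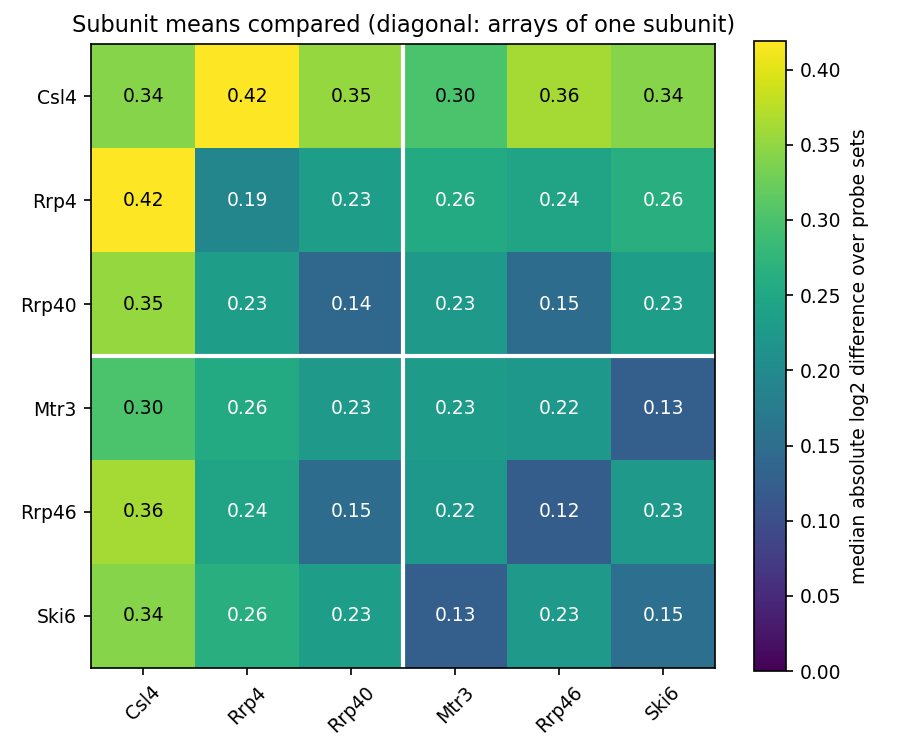
Median absolute log2 difference over the 9385 tested probe sets between each pair of subunit means, with the cap subunits first and white lines between the classes; the diagonal gives the median difference between arrays of the same subunit. The smallest values off the diagonal are Mtr3 with Ski6 (0.127) and Rrp40 with Rrp46 (0.149), and the largest is Csl4 with Rrp4 (0.419).

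Genes were therefore named where the class call was made with and without Rrp4, as for 203 probe sets (2.16%), and where all 3 cap means lay on 1 side of all 3 ring means. Of 7222 genes, each represented by its brightest probe set, 460 were called (6.37%), 241 higher in cap (3.34%) and 219 higher in ring (3.03%). The stricter rule kept 57 genes higher in cap (0.789%), with a median log2 difference of 0.48, and 35 higher in ring (0.485%), with a median of -0.61. These 92 became 190 without Csl4 1 and fell to 28 without Csl4 2, 29 without Rrp40 1, 40 without Rrp40 2, 43 without Ski6 1, 48 without Mtr3 2, 49 without Rrp46 2 and 52 without Rrp46 1. With the values as deposited the rule kept 6 and 10. The subunit means of the classes were apart for 944 probe sets (10.1%) and all arrays of the classes for 110 (1.17%), 68 with the cap higher (0.725%) and 42 with the ring higher (0.448%). Where every order of 6 subunit means is equally likely, 3 lie apart from the other 3 with a probability of 0.1. The count of 944 is near that share and by itself shows no separation of the classes.

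The widest difference was in Pepck2, which encodes a phosphoenolpyruvate carboxykinase, the enzyme that makes phosphoenolpyruvate from oxaloacetate at the start of gluconeogenesis. Its log2 signal was 5.28 and 5.58 on Csl4 arrays, 8.08, 8.41, 8.19 and 8.32 on Rrp4 arrays and 4.59 and 5.30 on Rrp40 arrays. On ring arrays it was 3.35 and 3.25 (Mtr3), 1.69 and 2.06 (Rrp46) and 1.69 and 3.19 (Ski6), where 1.69 is the floor. Every cap array lay above every ring array. Because 2 ring arrays sat at the floor, which stands for any lower value, differences in Pepck2 are lower bounds. The difference was at least 3.67 (log2, SE 0.28; at least 12.7-fold, adjusted p = 1.2e-06), where a floor at the 5th percentile gave 3.78 and one at the 20th 3.27. It was at least 2.65 without Rrp4 and at least 3.31 for Csl4 and Rrp40 against Rrp46 (adjusted p = 0.00094), of whose Rrp46 arrays 1 was at the floor. Pepck2 passed the filter on mean signal (5.16, where the cut was 4.67) with the Rrp4 arrays in it. With the other 18 arrays normalized and filtered alone, it fell below the cut and was not tested.

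Pepck1, the other fly gene for this enzyme, lies 2 positions away in the gene order of chromosome 2R (RefSeq annotation of assembly Release 6 plus ISO1 MT). It read 12.82 and 13.06 on Csl4 arrays, 13.33, 13.19, 13.17 and 13.15 on Rrp4 arrays and 12.73 and 12.94 on Rrp40 arrays. The ring values were 11.85 and 11.37 for Mtr3, 12.02 and 11.72 for Rrp46 and 10.79 and 11.72 for Ski6. Again no ring array reached a cap array. Pepck1 was higher in cap by 1.41 ± 0.12 (adjusted p = 2.4e-06), by 1.30 without Rrp4 and by 1.01 against Rrp46 alone (adjusted p = 0.016). Its cap subunits did not pass the F test for a difference among themselves (adjusted p = 0.23), nor did its ring subunits (adjusted p = 0.35). GFP arrays read 12.89 and 12.77 for Pepck1, among the cap values, and 7.56 and 5.98 for Pepck2, above every ring array. Whether probes of one gene also bind the transcript of the other was not tested.

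**Figure D2:**
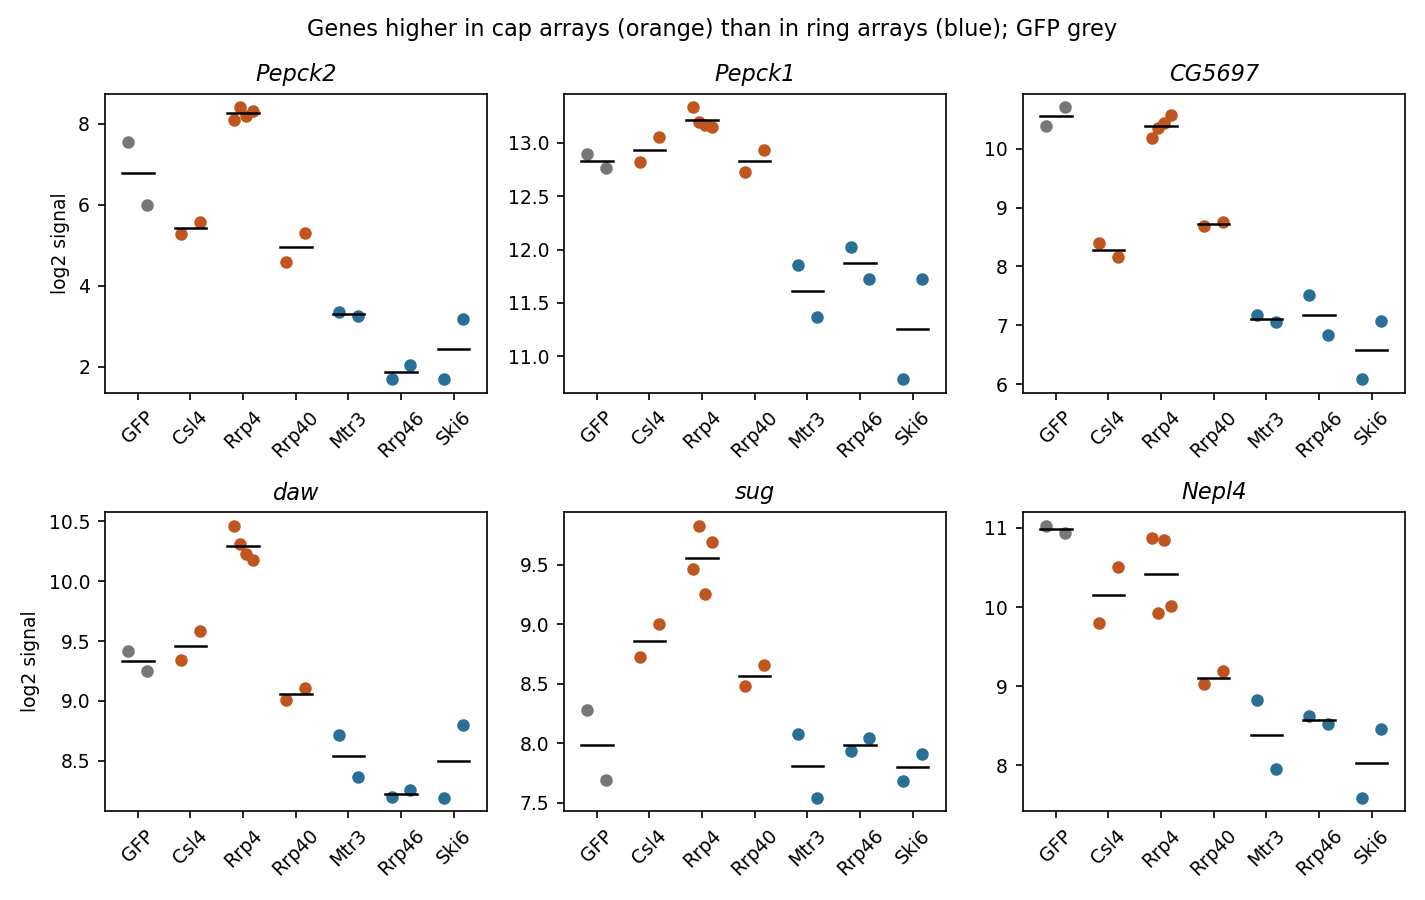
Log2 signal on each array (points) and its group mean (lines) for 6 genes higher with a cap label; GFP arrays are grey, cap orange and ring blue, and each panel has its own axis. For all 6 genes every cap array lies above every ring array, and Rrp4 arrays have the highest subunit mean.

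CG5697 was next, higher by 2.18 ± 0.17 (adjusted p = 1.2e-06). It read 8.16 to 8.76 on Csl4 and Rrp40 arrays, 10.18 to 10.58 on Rrp4 arrays and 6.08 to 7.51 on ring arrays. CG30431 was higher by 1.64 ± 0.15 and CG5758 by 1.14 ± 0.14, and these 3 genes were called against Rrp46 alone too, by 1.33, 1.11 and 1.12.

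Genes of signalling and sugar control belonged to this group too. Dawdle (daw), an activin-like ligand of the TGF-beta family, read 9.34 and 9.58 on Csl4 arrays, 10.18 to 10.46 on Rrp4 arrays and 9.004 and 9.11 on Rrp40 arrays. Ring arrays held 8.19 to 8.80 for daw. The difference of 1.18 ± 0.12 (adjusted p = 1.2e-05) was 0.84 without Rrp4 and 1.03 against Rrp46 alone (adjusted p = 0.013). Sugarbabe (sug), a zinc finger factor that responds to dietary sugar, read 8.48 to 9.83 on cap arrays and 7.54 to 8.08 on ring arrays. It was higher in cap by 1.13 ± 0.14 (adjusted p = 9.4e-05) but not called against Rrp46 alone, at 0.73 ± 0.22 (adjusted p = 0.18). Its GFP arrays, at 8.28 and 7.69, sat nearer the ring.

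The rest of the 12 highest were mostly enzymes. Nepl4, a neprilysin-like peptidase, was higher by 1.57 ± 0.20 and Ance, a peptidase of the angiotensin-converting enzyme family, by 1.56 ± 0.15. The cytochrome P450 gene Cyp28d1 was higher by 1.25 ± 0.14, Sgsh, a lysosomal sulfatase acting on heparan sulfate, by 1.14 ± 0.13, and the uncharacterised CG15343 by 1.32 ± 0.19. As the naming rule required, all 5 were called without Rrp4, at 0.87 (Cyp28d1) to 1.30 (Nepl4). None was called against Rrp46 alone, at 0.34 ± 0.23 (Ance) to 1.06 ± 0.31 (Nepl4). For Ance the Rrp46 arrays read 7.32 and 7.41, beside 7.46 on the lowest cap array and 6.03 to 6.46 on Mtr3 and Ski6 arrays.

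Genes of sugar breakdown and synthesis were read as a list. Of 18 glycolysis and gluconeogenesis genes 13 were tested, and 8 were higher in cap and 0 higher in ring, where 3.34% and 3.03% of all genes were. The median difference of the 13 was 0.37, beside 0.009 over all genes, and 12 of the 13 were positive. Besides the Pepck genes these were Pfk, the phosphofructokinase that commits sugar to glycolysis, at 1.26 ± 0.12 (adjusted p = 5.3e-06), Pgi at 0.54 ± 0.08, the trehalose-splitting Treh at 0.46 ± 0.10, Tpi at 0.37 ± 0.07, Gapdh1 at 0.34 ± 0.05 and enolase (Eno) at 0.31 ± 0.04. No call was made for fbp, the fructose bisphosphatase of gluconeogenesis (0.46 ± 0.14, adjusted p = 0.072), Ald1 (0.37 ± 0.11, adjusted p = 0.070), Hex-A (0.23 ± 0.11), Pgk (0.13 ± 0.09) or Pglym78 (-0.11 ± 0.17). All arrays of the classes were apart for 4 of the 8 called genes, Pepck1, Pepck2, Gapdh1 and Eno.

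The list depended on which subunits stood for the classes. Without Rrp4 the 5 genes Pepck1, Pepck2, Pfk, Gapdh1 and Eno were called and the list median was 0.28. Of all 7222 genes 116 were higher in cap in that contrast. Pgi was at 0.28 there (adjusted p = 0.12), Treh at 0.35 (adjusted p = 0.10) and Tpi at 0.26 (adjusted p = 0.085). Pepck2 counts among the 5 only because the Rrp4 arrays were in the filter on mean signal. With the other 18 arrays normalized and filtered alone it was not tested, and 4 of 12 list genes were called. Against Rrp46 alone, where 0.384% of all probe sets were higher in cap, only the 2 Pepck genes were called. Pfk was at 0.21 ± 0.19 there, Eno at 0.12 ± 0.07, Gapdh1 at 0.17 ± 0.07 and Pgi at -0.02 ± 0.13. Pfk shows the spread within the ring: it read 8.58 to 9.14 on Mtr3 and Ski6 arrays but 10.09 and 9.92 on Rrp46 arrays, level with Csl4 at 9.996 and 9.92 and below Rrp40 at 10.41 and 10.55 and Rrp4 at 11.11 to 11.20. Without normalization between arrays Treh missed the call (0.37, adjusted p = 0.21), as it did with median centring (0.41, adjusted p = 0.13). GFP means lay above the ring mean for all 13 genes and above the cap mean for 12, Pepck1 being the exception. 

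**Figure D3:**
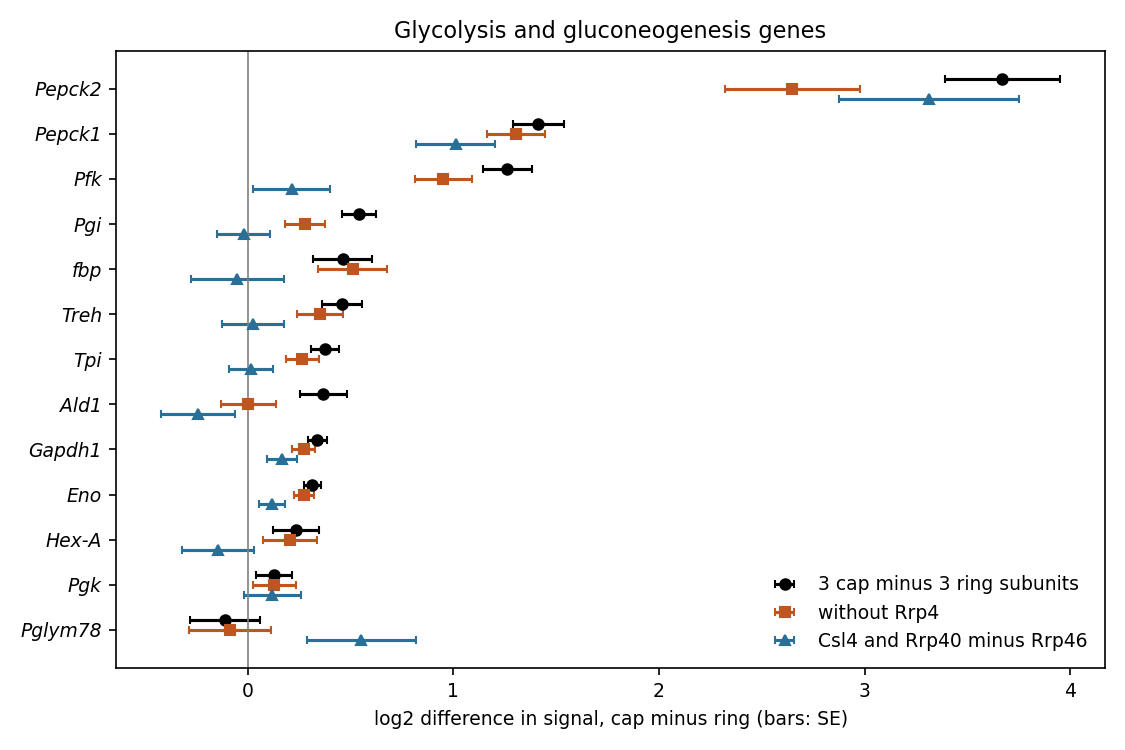
Log2 difference in signal, cap minus ring, for the 13 tested genes of the glycolysis and gluconeogenesis list, with bars for 1 SE: all 6 subunits (black), without Rrp4 (orange) and Csl4 with Rrp40 against Rrp46 (blue). Pepck2 and Pepck1 stay above 1 in all 3 contrasts, while Pfk goes from 1.26 to 0.21 and Pgi from 0.54 to -0.02 against Rrp46.

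On the ring side the widest difference was in Obp28a, an odorant-binding protein gene. It read 5.77 and 5.92 on Mtr3 arrays, 7.46 and 7.503 on Rrp46 arrays and 6.72 and 5.73 on Ski6 arrays. Cap arrays held 6.04 and 3.45 (Csl4), 3.66 to 5.47 (Rrp4) and 4.38 and 3.96 (Rrp40), so 1 Csl4 array overlapped the ring. The difference was -1.99 ± 0.37 (adjusted p = 0.0029), and -3.02 against Rrp46 alone (adjusted p = 0.016).

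Tsp42Eg, a tetraspanin membrane protein gene, read 4.74 to 6.01 on the 8 cap arrays. Its ring values were 6.98 and 7.95 on Mtr3 arrays, 6.62 and 7.25 on Rrp46 arrays and 8.39 and 7.04 on Ski6 arrays, all above the cap. The difference was -1.70 ± 0.25 (adjusted p = 0.00041), with -1.62 without Rrp4 and -1.18 ± 0.39 against Rrp46 alone (adjusted p = 0.23). AttD, an attacin antimicrobial gene, had a similar layout, with 7.40 to 7.92 on cap arrays and 8.12 to 9.45 on ring arrays, a difference of -0.93 ± 0.17 (adjusted p = 0.0023).

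Peroxidasin (Pxn), which crosslinks basement membrane collagen, differed by -1.19 ± 0.16 (adjusted p = 0.00015). Here Mtr3 and Ski6 arrays read 7.48 to 7.84, while Rrp46 arrays read 6.55 and 5.94, inside the cap range of 5.63 to 6.34 for 1 of the pair. Against Rrp46 alone the difference was -0.22 ± 0.24. The zinc transporter gene ZnT63C (-0.78 ± 0.08), the receptor gene mthl4 (-0.85 ± 0.15) and the nicotinic receptor subunit gene nAChRbeta2 (-1.10 ± 0.24) were likewise highest on Mtr3 and Ski6 arrays, and all 3 missed the call against Rrp46 alone. ZnT63C shows it most plainly, at 9.62 and 9.59 on Rrp46 arrays, 9.48 to 9.70 on Csl4 and Rrp40 arrays and 10.25 to 10.50 on Mtr3 and Ski6 arrays.

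**Figure D4:**
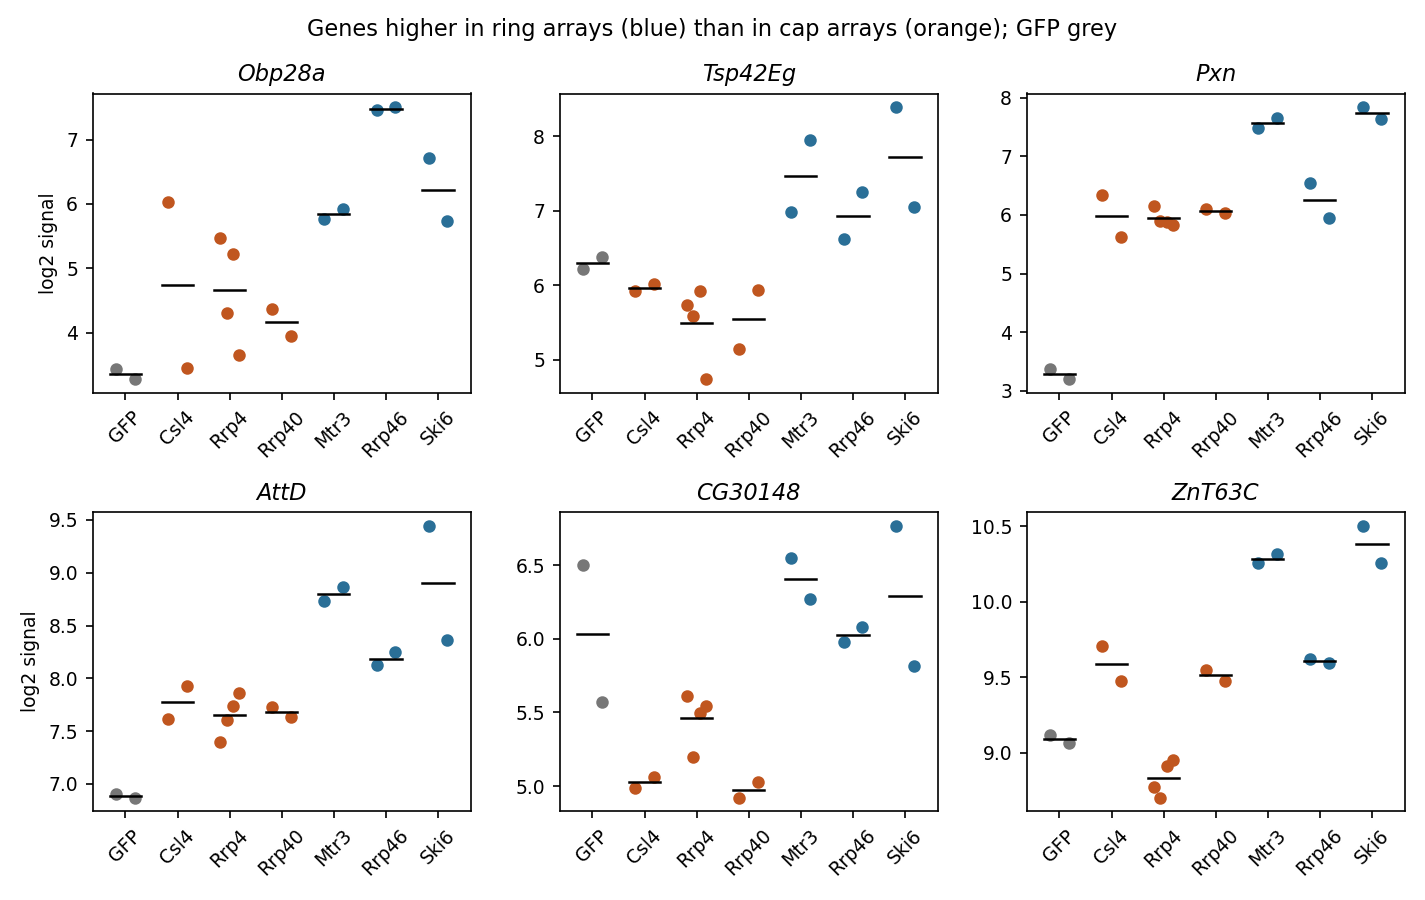
Log2 signal on each array (points) and its group mean (lines) for 6 genes higher with a ring label; GFP arrays are grey, cap orange and ring blue, and each panel has its own axis. Tsp42Eg, AttD and CG30148 have every ring array above every cap array, whereas Pxn and ZnT63C have Rrp46 arrays at or near the cap values.

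The remaining 5 of the 12 lowest were CG10147 (-1.34 ± 0.31), CG30148 (-1.09 ± 0.20), the lipophorin receptor gene LpR2 (-1.07 ± 0.30), CG8925 (-1.04 ± 0.30) and CG31688 (-1.01 ± 0.24). CG10147 and CG8925 had a mean signal of 4.88 and 4.78, where the filter cut was 4.67. Both passed it only with the ring arrays counted, where they were high, so their tests rest on that filter. CG30148 had arrays apart, with 4.92 to 5.61 in the cap and 5.81 to 6.77 in the ring. LpR2, CG8925 and CG31688 were the least secure, with adjusted p of 0.041, 0.048 and 0.018. CG8925 read 1.91 and 3.64 on Csl4 arrays, 4.80 to 5.49 on the other cap arrays and 5.09 to 5.74 on ring arrays. Without the Csl4 arrays its difference was -0.25 and that of CG31688 -0.58, neither called.

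Of the 24 genes, 20 kept their call with each of the 14 arrays left out in turn. CG10147 lost it without Ski6 1 (adjusted p = 0.057), CG31688 without any of Csl4 2, Mtr3 2, Rrp40 2, Rrp46 1 and Ski6 1 (up to 0.0786), and LpR2 without any of 9 arrays: Csl4 2, Mtr3 2, Rrp4 2, both Rrp40, both Rrp46 and both Ski6 arrays (up to 0.16). CG8925 lost it without any array but Csl4 2 (up to 0.148). With the other 18 arrays normalized without Rrp4, 17 of the 23 genes measured kept their call and 0 reversed. CG15343, AttD, CG31688, CG8925, LpR2 and nAChRbeta2 lost theirs, and Pepck2 was not tested. The contrast of Csl4 and Rrp40 with Rrp46 called 84 probe sets (0.895%), 36 higher in cap (0.384%) and 48 higher in ring (0.511%). Of the 24 genes 8 were called in it. These were Pepck1, Pepck2, CG5697, CG30431, daw and CG5758 on the cap side and Obp28a and CG10147 on the ring side. Each of the other 16 had the same sign, but the naming rule fixed the sign of all 24 in advance. The rule required every cap mean to lie on the same side of every ring mean, so the shared sign is no test of these genes.

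The GFP level was set beside both classes. For 45 of the 57 cap-higher genes the GFP mean lay nearer the cap mean, and for 37 of them it lay above both class means. For 23 of the 35 ring-higher genes GFP also lay nearer the cap, below both means for 17 of them. In the cap-higher set Ski6 had the lowest ring mean for 43 of 57 genes, with Mtr3 lowest for 8 and Rrp46 for 6, and the highest cap mean was that of Csl4 for 26, of Rrp4 for 26 and of Rrp40 for 5. In the ring-higher set Ski6 had the highest ring mean for 18 of 35. These genes were chosen for the gap between the classes, so the counts describe them and carry no test.

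**Figure D5:**
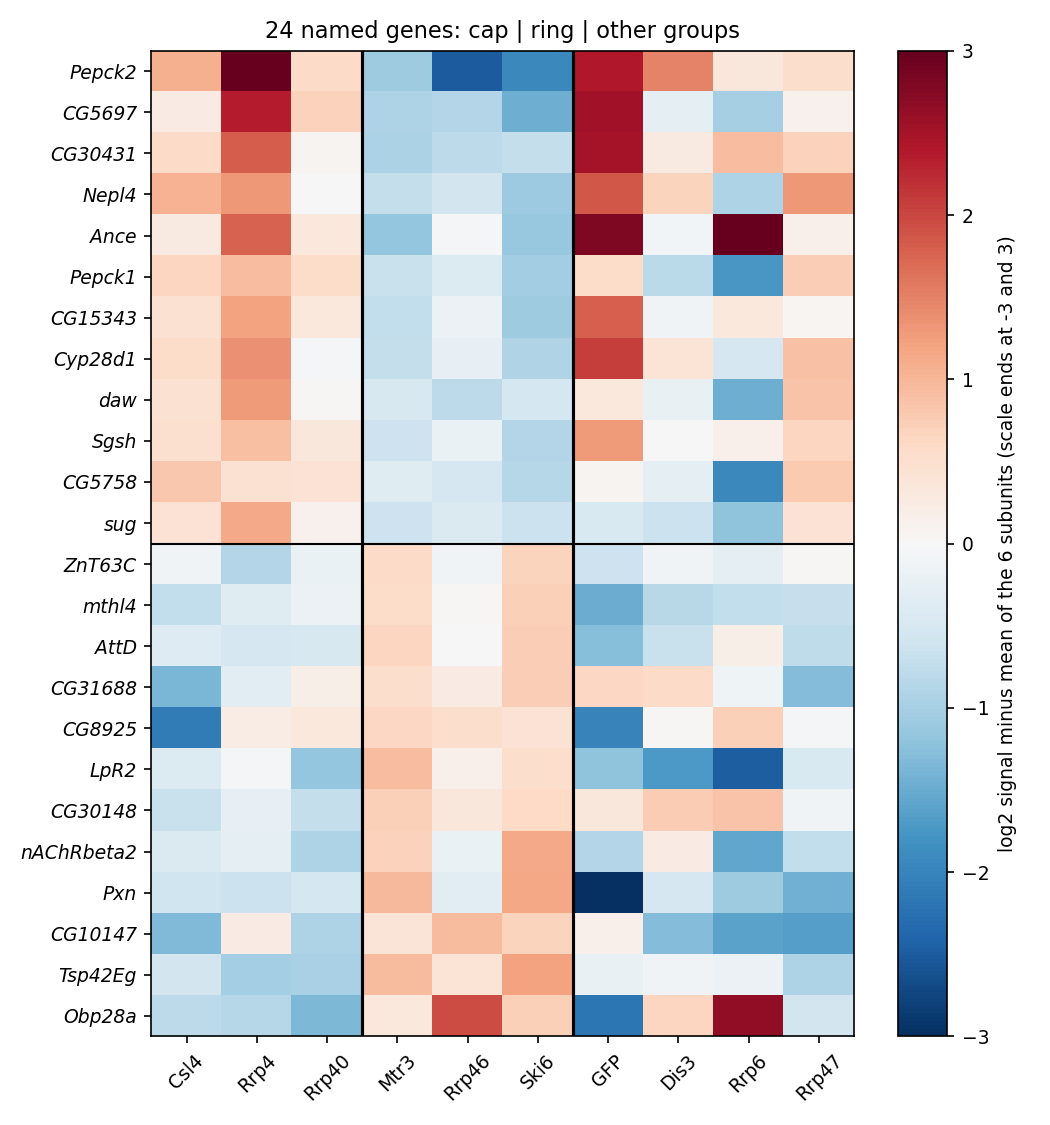
Group means of the 24 named genes as log2 signal minus the mean of the 6 subunits, with cap, ring and the other 4 groups separated by black lines; values beyond -3 or 3 take the end colour. The 12 upper genes are mostly red in cap and blue in ring and the 12 lower genes mostly the reverse, and GFP is red for most upper genes.

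Some calls were not made without Rrp4. Of the 460 called genes, 288 (3.99% of those tested) were not called once the Rrp4 arrays were left out. The 3 highest of these were the cuticle protein genes Cpr64Ac (1.97 ± 0.44) and Cpr64Ad (1.78 ± 0.49) and the sulfotransferase gene St3 (1.58 ± 0.40). Cpr64Ad passed the filter on mean signal (4.74, where the cut was 4.67) only with the cap arrays counted, where it was high. Cpr64Ac read 6.80 to 7.54 on Rrp4 arrays, 4.93 to 6.23 on Csl4 and Rrp40 arrays and 3.29 to 5.04 on ring arrays, and was at 1.43 ± 0.51 without Rrp4 (adjusted p = 0.13). The 3 lowest were Nazo, an antiviral immune gene (-1.87 ± 0.37), CG40160 (-1.67 ± 0.36) and CG7299 (-1.54 ± 0.39). Without Rrp4 the SE was wider too, so a lost call is not by itself a smaller difference. Cpr64Ad was then at 1.67 ± 0.57, St3 at 0.96 ± 0.47, Nazo at -1.09 ± 0.44, CG40160 at -1.18 ± 0.42 and CG7299 at -0.86 ± 0.46. These calls were also lost without some single arrays: Cpr64Ac without Ski6 1 (adjusted p = 0.051), St3 without any of Mtr3 2, both Rrp40 arrays, Rrp46 2 and Ski6 1 (up to 0.11), Cpr64Ad without any array but Csl4 1, Rrp4 1, Rrp40 1 and Rrp46 2 (up to 0.142), and CG7299 without either Mtr3, Rrp40 or Ski6 array, Csl4 1 or Rrp46 1 (up to 0.0986).

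Other called genes split the subunits along a line that is not the class line. Nazo read 9.01 and 9.04 on Csl4 arrays, 9.76 to 10.45 on Mtr3 and Ski6 arrays, 7.23 and 7.19 on Rrp46 arrays, 7.18 and 6.90 on Rrp40 arrays and 5.23 to 6.03 on Rrp4 arrays. Csl4 of the cap thus sat near Mtr3 and Ski6, and Rrp46 of the ring near Rrp40. SerT, the serotonin transporter gene, had the same layout: 10.73 and 10.60 for Csl4, 10.79 to 11.22 for Mtr3 and Ski6, 8.70 and 8.57 for Rrp46, 9.62 and 9.33 for Rrp40 and 7.49 to 7.61 for Rrp4. Its class difference of -0.96 ± 0.08 (adjusted p = 2.4e-06) was -0.12 without Rrp4 and 1.43 ± 0.13 in the opposite direction for Csl4 and Rrp40 against Rrp46 (adjusted p = 1e-05). Hemolectin (Hml), a clotting protein of hemocytes, ran the other way, with 10.19 to 10.80 on Csl4, Mtr3 and Ski6 arrays and 12.21 to 13.37 on Rrp4, Rrp40 and Rrp46 arrays. Its class difference was 1.00 ± 0.23, and -0.74 ± 0.36 against Rrp46 alone; the call was lost without Rrp46 2 (adjusted p = 0.052) or Ski6 1 (adjusted p = 0.061).

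The exosome genes themselves were read as a check of the labels. Csl4 gave 10.56 and 11.26 on arrays with its own label and 7.76 to 8.29 on the other 12. Rrp40 gave 11.02 and 11.22 on its own arrays against 8.19 to 8.90, and Ski6 10.05 and 10.82 against 7.10 to 8.26. These 3 targets were thus higher, not lower, on the arrays labelled as depleted of them, so groups are named by their labels only. Own arrays disagreed for Mtr3 (6.90 and 9.39) and Rrp4 (9.43, 10.81, 7.12 and 7.53). The Rrp46 gene read 8.58 and 9.31 on its own arrays against 8.10 to 8.98 on the other 12 of the contrast. Outside the contrast it read from 8.25 on a GFP array to 9.61 on a Dis3 array. The class calls for Csl4 (0.80), Rrp40 (0.76) and Ski6 (-0.84) came from their own arrays and say nothing of the class. Leaving own arrays aside, the Csl4 gene averaged 7.94 on the other cap arrays and 8.13 on ring arrays, Rrp40 8.49 and 8.60, and Ski6 7.60 and 7.44 on the other ring arrays.

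Genes of RNA decay were read as lists beside the 6.37% of all genes called. Of 11 tested nucleases and cofactors of the exosome, among them Dis3 (-0.29 ± 0.18) and Rrp6 (0.17 ± 0.15), 0 were called in either direction by limma, with a list median of -0.08. Of 23 other mRNA decay factors 1 was called, twin, a deadenylase of the CCR4-NOT complex, at 0.37 ± 0.09, and its call was lost without Csl4 2, Mtr3 1, Rrp40 2 or any Rrp46 or Ski6 array (adjusted p up to 0.0767). Among 29 factors of mRNA 3' end and small nuclear RNA processing, Slbp, which binds the histone mRNA stem-loop, was higher in cap by 0.45 ± 0.09 with arrays apart. Lsm11, a part of the particle that cleaves histone mRNA ends, was higher in ring (-0.88 ± 0.23). Without Rrp4 it was at -0.95 ± 0.27 but not called (adjusted p = 0.064). Its call was also lost without Csl4 2, Rrp40 1 or any Mtr3, Rrp46 or Ski6 array (adjusted p up to 0.102).

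Genes of the hemocyte list went both ways. Of 23 tested, 2 were higher in cap and 3 in ring, where 3.34% and 3.03% of all genes were, with a median of -0.24. Hml and PPO1 (0.83 ± 0.16), a prophenoloxidase, were the cap pair, and Pxn, Glt and SPARC the ring ones. The GFP mean lay below both class means for PPO1 (2.93), Pxn (3.29) and Glt (6.01) and above both for Hml (12.61). PPO1 read 7.68 to 8.78 on cap arrays and 8.88 and 8.97 on Rrp46 arrays but 6.39 to 7.04 on Mtr3 and Ski6 arrays, so its direction turned against Rrp46 alone (-0.60 ± 0.25). Glt, a glutactin of the basement membrane, was at -0.78 ± 0.18, at -0.44 without Rrp4 (adjusted p = 0.27) and at 0.67 against Rrp46 alone; its call was lost without any of Csl4 2, Mtr3 2, Rrp40 2, Rrp46 1 and Ski6 2 (up to 0.0629). Of 31 immune genes 0 were higher in cap and 2 higher in ring, AttD and Nazo, the latter not called without Rrp4 (adjusted p = 0.18).

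Lists of protein synthesis are given beside the shares of all genes, 3.34% higher in cap and 3.03% higher in ring. Among 16 tested aminoacyl-tRNA synthetases, ThrRS (0.45 ± 0.09) and ValRS (0.36 ± 0.07; not called without Rrp4, adjusted p = 0.13) were higher in cap and 0 in ring, with a median of 0.19. ThrRS had arrays apart, at 11.54 to 12.03 in the cap and 10.99 to 11.43 in the ring. Of 13 genes of amino acid and one-carbon metabolism, the amino acid transporter gene JhI-21 (0.40 ± 0.08) and the folate enzyme gene Nmdmc (0.47 ± 0.13) were higher in cap, both not called without Rrp4 (adjusted p = 0.14 and 0.10). Of 29 cytosolic ribosomal proteins only RpS18 was called, at 0.18 ± 0.03. It read 13.52 and 13.50 on Rrp46 arrays and 13.99 to 14.16 on the other 12, and without the Rrp46 arrays its difference was -0.02. Of 35 ribosome biogenesis genes Non1 was higher in cap (0.37 ± 0.07) and Nnp-1 (-0.37 ± 0.09) and Nph (-0.29 ± 0.08; not called without Rrp4, adjusted p = 0.32) in ring.

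Oxidative phosphorylation had 46 genes tested, 0 higher in cap and 3 higher in ring, where 3.34% and 3.03% of all genes were, with a median of -0.08. ATPsynC, the membrane ring subunit of the ATP synthase, was at -0.37 ± 0.08 with arrays apart, and COX8 of cytochrome oxidase at -0.31 ± 0.08. Neither was called without Rrp4 (adjusted p = 0.11 and 0.23). DNA replication had 37 tested, with RPA1 (-0.27 ± 0.06) and PolE2 (-0.38 ± 0.11) higher in ring, again not called without Rrp4 (adjusted p = 0.14 and 0.35). RPA1 read 11.54 and 11.56 on Rrp46 arrays and 10.60 to 10.94 on the other 12, so 1 ring subunit carried it. Apoptosis and DNA damage genes had p53 (-0.31 ± 0.07) and Dark (-0.42 ± 0.11) higher in ring and MsrA (0.44 ± 0.12) in cap among 18 tested, and endoplasmic reticulum stress genes P58IPK (0.27 ± 0.07) in cap and Sec61alpha (-0.28 ± 0.06) in ring among 14. Without Rrp4 the calls of p53 (adjusted p = 0.078), Dark (0.069), P58IPK (0.37) and Sec61alpha (0.16) were lost. Single arrays ended calls in these lists. The call of PolE2 was lost when any of 13 arrays was left out (adjusted p up to 0.167), that of RPA1 with any of 5 (up to 0.0652), COX8 4 (up to 0.0905), Dark 6 (up to 0.0924), p53 2 (up to 0.0562), MsrA 11 (up to 0.136) and P58IPK 12 (up to 0.122). Among the synthesis lists the same befell Nph with 10 (up to 0.139), Nnp-1 with 4 (up to 0.0742) and Nmdmc with 8 (up to 0.126).

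Of the exosome cap genes 2 of 3 and of the ring genes 1 of 5 tested were called, all of them targets. The ecdysone list had 1 of 8 called, MsrA. No call was made among 1 histone, 4 somatic ovary and 1 fat body gene, while 6.37% of all genes were called. Nor was any made among 29 mitosis, 26 proteasome, 13 heat shock and chaperone or 17 germline and piRNA genes or 4 noncoding RNAs and snoRNA hosts. Of the markers of S2 identity, all 10 hemocyte genes listed were on the array and 9 were tested. Their list summed to a log2 signal of 14.2 to 15.3 on cap arrays and 14.83 to 14.96 on ring arrays. Among markers of other cell types, the neuronal list summed to 7.98 to 9.14 on cap and 7.63 to 8.75 on ring arrays, and the muscle list to 5.15 to 6.52 and 4.41 to 6.46. The germline list gave 6.82 to 7.47 and 6.56 to 7.65, fat body 5.73 to 6.28 and 5.82 to 6.64 and somatic ovary 1.96 to 5.36 and 2.07 to 4.78. The muscle gene Mlc2 was at the floor on 10 of the 14 arrays. The crystal cell list, which holds PPO1, summed to 7.90 to 8.97 and 6.90 to 9.15. Of the neuronal, muscle, germline and fat body markers tested, 0 were called by limma; from the wider lists SerT and the muscle actin gene Act79B (0.74 ± 0.18; lost without any of 4 arrays, adjusted p up to 0.0679) were.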

How the data were processed

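The authors deposited linear intensities per probe set, made with GCOS per the submitters' processing notes, whose version is not given in the sources used here. Their 2% trimmed means differed by more than 5%, so the 22 arrays were quantile normalized, floored at the 10th percentile of values outside the controls (3.234) and taken as log2. Of 18952 probe sets 183 controls were left out, and the 9385 at or above the median log2 signal (4.67) were tested. The fit (limma 3.58.1, R 4.3.3, lmFit with 10 group means, eBayes with a trend) had 12 residual degrees of freedom. The contrast was the mean of 3 cap means minus that of 3 ring means, two-sided, with calls at an adjusted p (Benjamini-Hochberg) under 0.05. GFP and the other groups had no place in the contrast, but shared its normalization, floor, filter and estimate of spread. The number of arrays limits precision.

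Probe sets took symbols from the platform annotation (13646 of 14049 listed had 1 symbol and 402 several). Named genes were the 12 highest and 12 lowest that passed the stricter rule, and the targets. Named too were the 2 highest and 2 lowest called members of each of 27 lists, and the 3 and 3 not called without Rrp4. The other glycolysis members and 1 hemocyte gene (SPARC) were named after their values were seen. The members and lists were chosen with earlier results of these data known. Replicate numbers did not pair arrays: 30 correlations of same-numbered residuals ran from -0.218 to 0.059. The fit was run on simulated data with known class differences and no differences between subunits of 1 class. That run thus does not bear on the spread between subunits.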

Additional observations from a re-analysis of the deposited data

Results flagged for a closer look

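Within the Rrp4 group, Rrp4 3 stood apart from the other 3 arrays for Tpi, where it read 12.40 and the others 12.53 to 12.55, and for Pgk, where it read 11.41 and the others 11.62 to 11.65. These were 2 of 80 values tested for an array far from its group (2.5%), where chance gives about 5%. Tpi kept its class call without Rrp4 3.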

How the results depend on the processing

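The 544 class calls became 345 as deposited, 326 with median centring, 1242 with the 14 arrays normalized and fitted alone, 1240 with them fitted alone after the normalization of all 22, 1132 with array weights, 824 with each array weighted equally, 127 without Rrp4 and normalized over the other 18, 84 for Csl4 and Rrp40 against Rrp46 (0.895%), 80 at 2-fold or more, 260, 301, 907 and 166 without the Rrp4, Mtr3, Rrp46 or Ski6 arrays, and 0 with the subunit as the unit or as a random block. They ranged from 284 to 748 with 1 array left out. The 260 calls without Rrp4 became 6640 as deposited, 1142 with the 14 arrays normalized and fitted alone, 1143 with these only fitted alone, 157 with no filter, 664 with array weights and 73 to 733 with 1 array left out. The lowest came without Csl4 2 and the highest without Csl4 1. In the same order the 92 genes of the stricter rule became 16, 256, 256, 54, 183 and 28 to 190, and 55 with median centring. Calls among cap subunits (2531) became 8879 as deposited, 4326 with the 14 arrays normalized and fitted alone, 4300 with these only fitted alone, 83 for Csl4 against Rrp40 and 752 to 3063 with 1 array left out. Those among ring subunits (291) became 5422, 640, 646, 174 with median centring, 1398 with array weights and 65 to 295. The 8 glycolysis calls became 0 at the level of subunits, 5 without Rrp4, 4 without it after renormalization, 2 against Rrp46, and 8 to 9 with 1 array left out. After that renormalization Pepck2 fell below the filter and was not tested. The replicate number only names arrays. As a replicate block it gave 403 class calls, 156 without Rrp4, 56 under the stricter rule, 899 among cap subunits and 195 among ring subunits.

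Of 2351 values of 61 named genes under the alternatives, 1790 kept direction and call, 549 lost the call and 12 reversed. RpS18 went to -0.025 without Rrp46. Against Rrp46 alone the others were St3 (-0.32), Hml (-0.74), PPO1 (-0.60), ValRS (-0.15), Pgi (-0.020), PolE2 (0.083), Glt (0.67), SerT (1.43), CG7299 (1.95), CG40160 (0.067) and Nazo (0.82). The cause of these changes was not tested.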

Other observations

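Some other genes of the stricter rule were named after their values were seen and stand for no group. Pgm1, the phosphoglucomutase that links glycogen and glycolysis, was higher in cap by 0.73 ± 0.13 (limma, adjusted p = 0.0022) with every cap array above every ring array, and malic enzyme (Men) by 0.37 ± 0.08 (adjusted p = 0.0069). Neither was called against Rrp46 alone, at 0.23 and 0.39. Also higher in cap were eIF2Bdelta (0.54 ± 0.10), eIF3b (0.31 ± 0.05), eIF3g1 (0.29 ± 0.06) and the ribosome-bound scaffold gene Rack1 (0.14 ± 0.03). The release factor gene eRF3 was on the ring side at -0.39 ± 0.09, as were the filamin gene cher at -0.71 ± 0.12 and Wdr33, of the mRNA cleavage and polyadenylation complex, at -0.50 ± 0.14 (adjusted p = 0.048). None of the genes from eIF2Bdelta to Wdr33 was called against Rrp46 alone either (limma, adjusted p from 0.15 for Wdr33 to 0.51 for eIF2Bdelta).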
